A study of Mus musculus with 8 samples.

Results

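The cytokine receptor chains followed were Il2ra, Il2rb, Il2rg, Il4ra, Il7r, Il15ra, Il21r, Csf2ra and Csf2rb2, chosen by their gene symbols. Of these 9 genes, 7 had a probe on the array that could be named and placed, with 10 probes in all, 4 of them to Il2ra, among 21782 placed probes and 15089 genes with 1 symbol. Il2rg and Il4ra had no probe in the annotation used here and have no value. The cells were mouse CTL-EN T cells made to express human beta-c, the signalling chain shared by the GM-CSF, IL-3 and IL-5 receptors, either with a serine changed to glycine (Ser585Gly) or as the wild type. RNA came from 4 conditions, Ser585Gly and wild-type cells after 12 h in human GM-CSF at a dose of 50 ng/mL (12 h), and Ser585Gly and wild-type cells before the cytokine (0 h). All 4 conditions shared a preceding 12 h without factor in RPMI with 0.5% CS. None of the 4 was a further 12 h without GM-CSF. The GM-CSF response below is therefore 12 h over 0 h, and the cytokine cannot be told apart from the time in culture. The labels give neither the promoter that drove the human chain nor whether each line was a clone or a pool, so a difference between Ser585Gly and wild-type cells is a difference between 2 lines.

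Total RNA was compared on 8 spotted 2-colour arrays, 2 for each edge of a square: 12 h over 0 h in Ser585Gly cells, 12 h over 0 h in wild-type cells, Ser585Gly over wild type at 12 h and Ser585Gly over wild type at 0 h. The 2 arrays of an edge carried the RNAs in opposite dyes, Cy5 and Cy3, and every log2 ratio below has been turned so that the first-named RNA is on top. The labels name no separate cultures, so the p-values measure the spread between hybridisations and not between cultures. Over 21782 probes the 2 arrays of an edge correlated at 0.51 for the GM-CSF response in Ser585Gly cells and at 0.52 in wild-type cells, but at 0.22 for Ser585Gly over wild type at 12 h and at 0.12 at 0 h. The median spot of an array read 631 to 946 intensity units in the Cy5 channel, and 795 to 1105 units in the Cy3 channel. Of 13 measured T cell markers, 12 were above the empty wells in all 16 channels, with a median brightness percentile of 91.2, against medians between 23.9 and 46.1 for lists of 6 other cell types. The count above the empty wells in all 16 channels was 6 of 6 for NK, 6 of 7 for mast cell and 5 of 7 for B cell markers. It was 5 of 8 for myeloid, 4 of 6 for fibroblast and 2 of 4 for erythroid markers. Detection alone thus did not set T cell markers apart. Single markers went against the medians, with Cd4 at percentile 1.2, Eomes of the NK list at 98.0 and Cma1 of the mast cell list at 92.0. Of the 13 T cell markers, 1 rose and 2 fell with GM-CSF in each line. That is 23.1% of the list, beside 11.6% of all genes called in Ser585Gly and 10.2% in wild-type cells, in either direction. Cd3e and Cd3g, chains of the T cell receptor complex, stood at -0.90 and -0.72 on the log2 scale in Ser585Gly cells and at -0.84 and -0.71 in wild-type cells (limma adjusted p from 0.0032 to 0.0046). Lat, an adaptor of T cell receptor signalling, rose by 0.49 in both lines (limma adjusted p = 0.0245 in Ser585Gly and 0.0266 in wild-type cells). The Lat call did not hold in either line with the 2 arrays of an edge averaged first. It held in 12 of 19 other processing settings in Ser585Gly cells and in 10 of 19 in wild-type cells. The part of these markers in the results below was not tested.

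As background, cytokine receptors of this family signal when a ligand joins chains that have no kinase of their own but carry Janus kinases, which then phosphorylate STAT proteins. Il2ra encodes CD25, which binds IL-2 but transmits no signal, and raises the affinity of the receptor that Il2rb and the common gamma chain Il2rg form. Il15ra presents IL-15 to that same pair, Il7r and Il21r each join Il2rg in receptors for IL-7 and IL-21, and Il4ra joins it in a receptor for IL-4. Csf2ra is the ligand-binding chain of the mouse GM-CSF receptor, and Csf2rb2 is a second mouse beta chain that serves IL-3. In T cells IL-2 receptor signals through STAT5 raise transcription of Il2ra itself.

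The sequences before the starts of 3 of these genes are shown because Il2ra rose with GM-CSF, its neighbour Il15ra was lower in Ser585Gly cells, and Il7r was the other member past the test in the GM-CSF response, although on a probe that was at background in most channels. Each is the 250 bases before a RefSeq transcription start, 5′ to 3′ on the gene's own strand, from RefSeq's GRCm38.p6 table. Il2ra is at chr2:11642542-11642791 on the plus strand, Il15ra at chr2:11705043-11705292 on the plus strand, and Il7r at chr15:9529877-9530126 on the minus strand. Capitals mark matches, on either strand, to the STAT-type motif TTCNNNGAA or to the NF-kB consensus, which were the motifs searched.
Il2ra: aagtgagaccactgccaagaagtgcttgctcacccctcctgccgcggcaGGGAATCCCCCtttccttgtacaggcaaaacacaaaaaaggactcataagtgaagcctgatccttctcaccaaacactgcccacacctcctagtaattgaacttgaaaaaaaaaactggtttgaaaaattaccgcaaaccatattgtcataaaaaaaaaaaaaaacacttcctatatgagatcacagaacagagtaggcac
Il15ra: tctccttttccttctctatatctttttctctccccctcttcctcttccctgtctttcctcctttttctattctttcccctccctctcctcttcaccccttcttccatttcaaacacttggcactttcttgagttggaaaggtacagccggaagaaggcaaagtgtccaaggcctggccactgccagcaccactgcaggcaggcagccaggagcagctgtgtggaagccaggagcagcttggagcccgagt
Il7r: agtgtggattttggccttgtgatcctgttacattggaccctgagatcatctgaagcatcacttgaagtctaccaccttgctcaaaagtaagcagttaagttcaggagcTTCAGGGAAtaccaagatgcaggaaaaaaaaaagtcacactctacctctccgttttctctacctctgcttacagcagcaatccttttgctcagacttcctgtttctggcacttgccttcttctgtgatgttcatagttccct
The Il2ra window held 2 overlapping matches to the NF-kB consensus, the first beginning at position -201 relative to the start, and none to TTCNNNGAA. The Il7r window held 1 match to TTCNNNGAA, at position -142, and the Il15ra window held neither. Of the other members with a listed window, Csf2rb2 held 1 match to TTCNNNGAA, at position -15, and Il2rg, Il4ra, Il21r and Csf2ra held neither. A second listed Il15ra start also held neither. Over 32851 RefSeq promoters of the same length, 7.02% held TTCNNNGAA and 3.90% held the NF-kB consensus. A match is a description of the letters and not a measured binding site, and these windows do not include distal enhancers.

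Il2ra rose with GM-CSF in both cell lines, and its 4 probes rose together. On its brightest probe, NM_008367, the arrays gave log2 ratios of 1.91 and 1.88 for 12 h over 0 h in Ser585Gly cells. In wild-type cells they gave 2.003 and 1.65. Every array of both edges therefore had more Il2ra signal in the 12 h RNA. The fit over all 8 arrays put the change at 1.92 ± 0.14 in Ser585Gly cells (SE; a 3.77-fold rise; limma adjusted p = 0.000259) and at 1.81 ± 0.14 in wild-type cells (a 3.50-fold rise; limma adjusted p = 0.000289). This probe read above 50000 intensity units in 4 of 8 channels at 12 h, near the top of the scanner range, and whether that lowered the 2 folds was not tested. M21979, which stayed below 50000, gave 1.82 in Ser585Gly cells (1.201 with the deposited ratios) and 2.24 in wild-type cells. With the dye-swap arrays averaged first, the adjusted p from limma was 0.00329 in Ser585Gly cells and 0.00198 in wild-type cells.

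**Figure D1:**
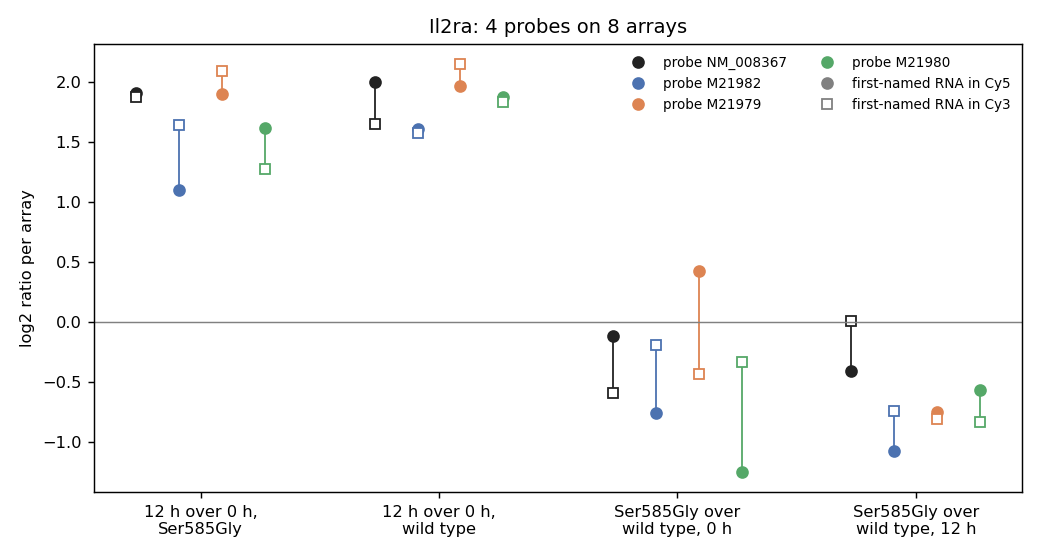
Log2 ratio of each of the 4 Il2ra probes on each of the 8 arrays, with the first-named RNA on top of the ratio; filled circles have that RNA in Cy5, open squares in Cy3, and a line joins the 2 arrays of an edge. All 16 values of the GM-CSF response lie above 1, while 14 of the 16 values of Ser585Gly over wild type lie below 0. The 4 probes are on the same arrays, so the 16 values are not 16 replicates.

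The other 3 probes target the same gene and are not replicates of the conditions. Probe M21982 gave 1.10 and 1.64 on the Ser585Gly arrays and 1.61 and 1.58 on the wild-type arrays. Probe M21979 gave 1.90 and 2.09 in Ser585Gly cells and 1.97 and 2.15 in wild-type cells. Probe M21980 gave 1.62 and 1.28 in Ser585Gly cells and 1.88 and 1.84 in wild-type cells. Fitted changes ran from 1.32 to 1.92 over the 4 probes in Ser585Gly cells and from 1.65 to 2.24 in wild-type cells, and all 4 passed the test in both, where 10.5% of all probes passed in Ser585Gly cells and 9.51% in wild-type cells in either direction. Under the probe names in the order the table lists them, the same 4 names had changes between -0.33 and 0.52, so the agreement between Il2ra probes rests on the recovered print order described with the processing.

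The brightest Il2ra probe came close to the top of the scanner range after GM-CSF. Its foreground was 20532 to 57907 intensity units in the 4 Ser585Gly channels at 12 h and 49238 to 57785 in the 4 wild-type channels at 12 h, against 4036 to 14904 in Ser585Gly and 3897 to 18826 in wild-type channels at 0 h. It was above 50000 in 1 of 4 Ser585Gly and 3 of 4 wild-type channels at 12 h, and in none at 0 h. The other 3 probes stayed below 50000 in every channel. On M21982 the single-channel log2 level averaged 12.17 ± 0.18 in Ser585Gly and 13.00 ± 0.21 in wild-type cells at 12 h, and 10.92 ± 0.33 in Ser585Gly and 11.43 ± 0.18 in wild-type cells at 0 h (SD, n = 4 channels each). The highest M21982 level was thus in wild-type cells at 12 h, then in Ser585Gly cells at 12 h. On this probe the 12 h levels ran from 11.94 to 12.36 in Ser585Gly and from 12.75 to 13.255 in wild-type cells. At 0 h they ran from 10.72 to 11.41 in Ser585Gly and from 11.17 to 11.60 in wild-type cells. How many of all probes keep the 2 lines apart at 12 h was not counted, so the gap is a description only. On each of the other 3 probes the 12 h levels of the 2 lines overlapped. On NM_008367 they were 14.24 to 15.73 in Ser585Gly and 15.45 to 15.90 in wild-type cells.

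**Figure D2:**
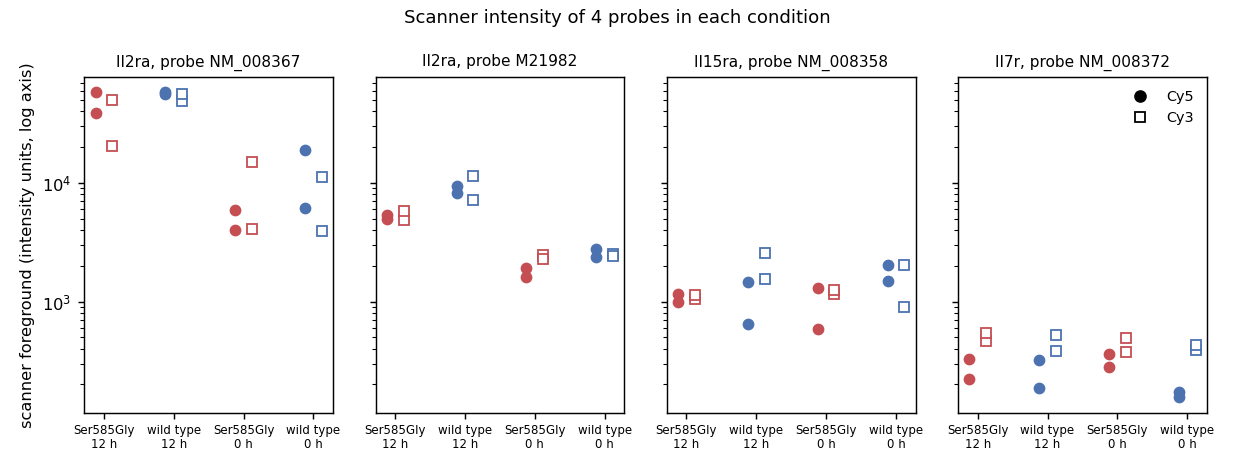
Scanner foreground (intensity units, log axis) of 2 Il2ra probes, Il15ra and Il7r in the 4 channels of each condition, red for Ser585Gly and blue for wild type, filled for Cy5 and open for Cy3. The brightest Il2ra probe lies between 20532 and 57907 at 12 h, and Il7r reaches at most 538 in any condition.

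Ser585Gly cells mostly had less Il2ra signal than wild-type cells, by an amount that differed between probes. On NM_008367 the ratios of Ser585Gly over wild type were -0.41 and 0.01 on the 12 h arrays and -0.11 and -0.59 on the 0 h arrays, and neither fitted difference passed the test (-0.22 at 12 h, limma adjusted p = 0.569, and -0.33 at 0 h, limma adjusted p = 0.199). On M21982 the ratios were -1.08 and -0.74 at 12 h and -0.75 and -0.19 at 0 h. Its fitted difference was -0.85 ± 0.12 at 12 h (SE; limma adjusted p = 0.0114, and 0.0461 with dye-swap arrays averaged). At 0 h it was -0.52 ± 0.12 (limma adjusted p = 0.0485, and 0.0864 with dye-swap arrays averaged), a call that did not hold in 13 of 19 other settings. The 0 h value was -0.32 with the deposited ratios and -0.33 with print-tip loess. Over all probes, 1.71% passed this test at 12 h and 4.07% at 0 h.

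The 2 remaining Il2ra probes did not pass the test in either comparison of the lines, but some other settings called them. Of 19 such settings, M21980 passed in 6 at 12 h and in 3 at 0 h. M21979 passed in 2 at 12 h and in 0 at 0 h. M21980 differed by -0.82 at 12 h (limma adjusted p = 0.0885) and by -0.66 at 0 h (limma adjusted p = 0.092), and M21979 by -0.60 at 12 h (limma adjusted p = 0.211) and -0.18 at 0 h (limma adjusted p = 0.600). The M21982 call at 12 h rested on both direct arrays: without the array that had Ser585Gly in Cy5 the adjusted p from limma was 0.153, and without the other 0.163, at log2 differences of -0.82 and -0.81.

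Counted by gene, 2 of the 7 measured chains passed the test upward in Ser585Gly cells after GM-CSF, Il2ra and Il7r, and none downward, where 11.6% of all genes passed in either direction by their brightest probe. In wild-type cells the same 2 chains passed upward and none downward, where 10.2% of all genes passed. Il7r was above the 95th percentile of the empty wells in 5 of 16 channels, so Il2ra was the 1 chain that passed on a probe above them throughout. The median change over the 7 chains was 0.13 in Ser585Gly and 0.03 in wild-type cells, beside 0.00 and -0.01 over all 15089 genes.

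**Figure D3:**
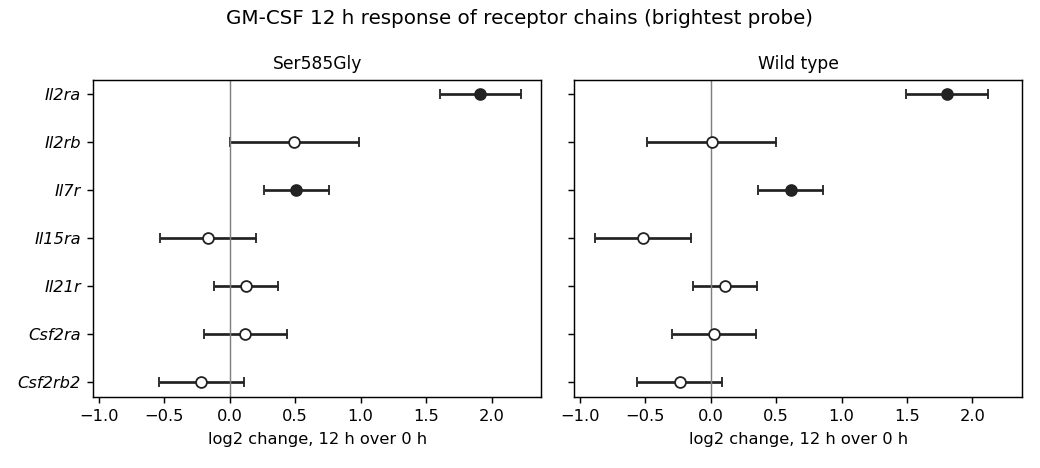
Fitted log2 change, 12 h over 0 h, of the 7 measured chains (brightest probe of each) in Ser585Gly cells, left, and wild-type cells, right; bars are 95% confidence intervals and filled points passed the test. Il2ra stands at 1.92 and 1.81, Il7r, above the empty wells in 5 of 16 channels, at 0.51 and 0.61, and the intervals of Csf2ra and Il21r include 0 in both lines.

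Il7r, the IL-7 binding chain that resting T cells depend on, was not above the 95th percentile of the empty wells in 11 of 16 channels, so its ratios lie mostly between spots at background and give no sure level or fold. The arrays gave 0.62 and 0.33 in Ser585Gly cells and 0.65 and 0.64 in wild-type cells. The fitted change was 0.51 ± 0.11 in Ser585Gly cells (SE; limma adjusted p = 0.0221, and 0.060 with dye-swap arrays averaged) and 0.61 ± 0.11 in wild-type cells (limma adjusted p = 0.0115, and 0.041 with dye-swap arrays averaged). Its foreground, 156 to 538 intensity units over all conditions, exceeded that percentile in 1 of 4 channels of each line at 12 h, in 2 of 4 Ser585Gly channels and in 1 of 4 wild-type channels at 0 h. The fitted change in wild-type cells was 0.30 with the deposited ratios. The call held in 11 of 18 other settings in Ser585Gly cells and in 15 of 18 in wild-type cells, and was lost in each line without either of its own direct arrays. In Ser585Gly cells it was also lost without the wild-type response array, or the 0 h array of the lines, that had the first-named RNA in Cy3 (limma adjusted p = 0.0598 and 0.0523). Among the 2178 dimmest probes, 0.964% passed the test upward in Ser585Gly and 1.42% in wild-type cells, against 6.30% and 5.92% of the rest.

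Il2rb, the signalling beta chain of the IL-2 and IL-15 receptors, did not pass the test in any comparison, but some other settings called it. These were 3 of 19 for the response in Ser585Gly cells and 4 of 19 for the lines at 0 h. Its arrays gave 0.30 and 0.33 for the GM-CSF response in Ser585Gly cells and 0.28 and 0.09 in wild-type cells, and the fitted changes were 0.49 (95% interval 0.00 to 0.98; limma adjusted p = 0.209) and 0.01 (-0.48 to 0.50; limma adjusted p = 0.987). Between the lines it stood at -0.28 at 12 h (limma adjusted p = 0.655) and -0.77 at 0 h (limma adjusted p = 0.0875). The 2 arrays of the 0 h edge read -1.54 and -0.35, and without the first of them, which had Ser585Gly in Cy5, the fitted difference was -0.28 (limma adjusted p = 0.249). Without that same array the fitted GM-CSF response in Ser585Gly cells was 0.33 and passed the test. Il2rb was bright, at 12323 to 35931 intensity units at 12 h and 3196 to 21605 at 0 h over both lines.

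Il15ra, the alpha chain that presents IL-15, had less signal in Ser585Gly than in wild-type cells, as Il2ra had on M21982. At 12 h the arrays gave -0.96 and -0.83 for Ser585Gly over wild type. At 0 h they gave -1.90 and -1.002. All 4 arrays thus had less Il15ra signal in the Ser585Gly RNA. The fitted difference was -0.996 ± 0.16 at 12 h (SE; Ser585Gly at 0.501 of the wild-type signal; limma adjusted p = 0.0216) and -1.35 ± 0.16 at 0 h (0.393 of the wild-type signal; limma adjusted p = 0.00552).

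By brightest probe, 1 of the 7 chains passed the test at 12 h and 1 at 0 h, Il15ra in both, where 1.96% of all genes passed at 12 h and 4.73% at 0 h. The median difference over the 7 chains was -0.10 at 12 h and -0.19 at 0 h, beside -0.01 and 0.00 over all genes. With dye-swap arrays averaged, the adjusted p from limma for Il15ra was 0.0404 at 12 h and 0.0146 at 0 h. The 0 h call held in all 19 other settings, at log2 differences from -1.498 to -0.76, and the 12 h call in 14 of 19. The smallest 0 h differences were -0.76 with the deposited ratios and -0.85 with print-tip loess. The 12 h call was lost without either 12 h array of the lines, without either wild-type response array, or without the Ser585Gly response array that had 12 h RNA in Cy5, with adjusted p values from limma between 0.058 and 0.214 and log2 differences between -1.13 and -0.96.

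**Figure D4:**
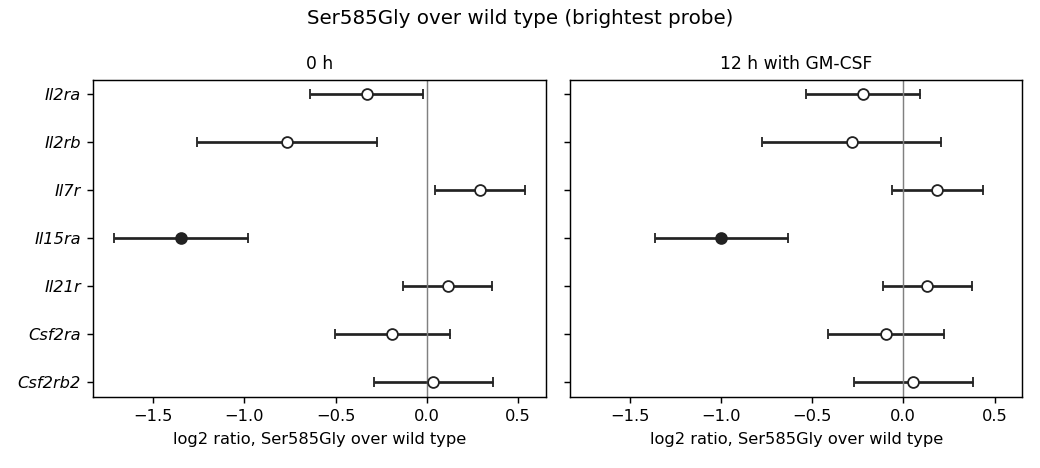
Fitted log2 ratio of Ser585Gly over wild type for the 7 measured chains (brightest probe of each) at 0 h, left, and at 12 h, right; bars are 95% confidence intervals and filled points passed the test. Il15ra stands at -1.35 and -0.996, and the intervals of the other chains lie closer to 0, with Il2rb at -0.77 at 0 h.

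Il15ra did not pass the test in the GM-CSF response. The arrays gave -0.17 and -0.37 in Ser585Gly cells and -0.59 and -0.25 in wild-type cells, and the fitted changes were -0.17 (95% interval -0.53 to 0.20; limma adjusted p = 0.600) and -0.52 (-0.89 to -0.15; limma adjusted p = 0.084). Across arrays its foreground was 988 to 1161 in Ser585Gly and 650 to 2549 in wild-type channels at 12 h, and 589 to 1295 in Ser585Gly and 897 to 2019 in wild-type channels at 0 h, so the raw channels overlapped and the difference appears within arrays. Il2ra and Il15ra are neighbouring protein-coding genes on chromosome 2 in RefSeq's GRCm38.p6 table.

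Il21r, the IL-21 binding chain, gave array ratios between -0.21 and 0.40 over the GM-CSF response in both lines. Its fitted changes were 0.13 in Ser585Gly cells (95% interval -0.12 to 0.37) and 0.11 in wild-type cells (-0.13 to 0.35), with limma adjusted p values of 0.548 and 0.595. Its line differences were 0.13 at 12 h and 0.12 at 0 h. Its foreground, 494 to 1304 over all channels, was above the empty wells throughout.

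Csf2ra, the ligand-binding chain of the mouse GM-CSF receptor, showed no change past the test. The cytokine given was human, and its binding to this mouse chain was not measured. Its fitted changes with GM-CSF were 0.12 in Ser585Gly cells (95% interval -0.20 to 0.44) and 0.03 in wild-type cells (-0.29 to 0.34), with limma adjusted p values of 0.684 and 0.938. The line differences were -0.10 at 12 h and -0.19 at 0 h, and the 0 h arrays disagreed in sign, at -0.62 and 0.14. Csf2rb2, the second mouse beta chain, stood at -0.22 in Ser585Gly cells and -0.24 in wild-type cells (limma adjusted p = 0.420 and 0.371). It was dim, above the empty wells in 10 of 16 channels.

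The test of whether GM-CSF changed a chain differently in the 2 lines, the response in Ser585Gly minus that in wild-type cells, called 0 of the 7 chains with limma, with 0.0596% of all genes and 0.0551% of all probes called. None of the 7 chains had an unadjusted p under 0.05 on its brightest probe, and 1 of the 10 probes did, Il2ra M21982, at -0.33 (unadjusted p = 0.0395; limma adjusted p = 0.701). No share of all probes under that unadjusted threshold is given here. For Il2ra the difference was 0.11 (95% interval -0.25 to 0.47) on NM_008367, the probe whose readings passed 50000. It was -0.42 (-0.92 to 0.08) on M21979 and -0.16 (-0.66 to 0.34) on M21980. These intervals span both a larger and a smaller response in Ser585Gly cells on those 3 probes, so a difference of that size was not resolved.

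Among the genes that share signalling with these chains, listed ligands did not pass the test of the GM-CSF response. The list counts that follow stand beside the 11.6% of all genes that passed in Ser585Gly and the 10.2% in wild-type cells, in either direction. All lists were chosen with earlier results of these data known, so the counts describe the lists and are no test of them. Of 10 measured ligand genes, including Il2, Il7, Il15 and Il21, limma called 0 in either line after GM-CSF, with 2 at an unadjusted p under 0.05 in Ser585Gly cells and 0 in wild-type cells. No share of all genes under that unadjusted threshold is given here to set beside these counts. Between the lines 1 ligand passed at 0 h, Il5, at -0.58 for Ser585Gly over wild type (limma adjusted p = 0.0351). That is 10% of the list, beside 4.73% of all genes. Il5 was dim, above the empty wells in 11 of 16 channels. Of 28 other cytokine receptor chains, 2 rose and 5 fell in Ser585Gly cells, and 3 rose and 5 fell in wild-type cells, which is 25% and 28.6% of the list. Il10ra, the ligand-binding chain of the IL-10 receptor, fell, at -1.02 in Ser585Gly cells (SE 0.27; limma adjusted p = 0.049) and -2.26 in wild-type cells (limma adjusted p = 0.00211). The Il10ra call held in 12 of 19 other settings in Ser585Gly cells and in 19 of 19 in wild-type cells. The test of the difference between the 2 Il10ra responses gave an adjusted p of 0.431 from limma.

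Ghr, the growth hormone receptor, fell, at -0.73 in Ser585Gly and -0.65 in wild-type cells. Il12rb1, a chain shared by the IL-12 and IL-23 receptors, rose by 0.79 and 0.75, and Lepr, the leptin receptor, by 0.93 and 0.66, in Ser585Gly and wild-type cells in that order (limma adjusted p from 0.00301 to 0.0165 for these 3 genes). The median over the 28 chains was 0.05 in Ser585Gly cells and -0.09 in wild-type cells, beside 0.00 and -0.01 over all genes. With dye-swap arrays averaged the counts were 2 up and 2 down in Ser585Gly cells and 2 up and 3 down in wild-type cells. In Ser585Gly cells 0 rose and 0 fell without the Ser585Gly response array that had 12 h RNA in Cy5, 3 rose and 1 fell without the other, and 2 to 6 fell without any 1 of the remaining 6 arrays. In wild-type cells 0 rose and 1 fell without the wild-type response array that had 12 h RNA in Cy5, 1 rose and 1 fell without the other, and 3 to 5 fell without any 1 of the remaining 6.

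Genes listed as targets of these receptors included many that rose. Like the others, this list was chosen with earlier results of these data known, so its share is a description only. Of 23 measured genes listed as IL-2 or STAT5 targets, 12 rose and 0 fell in Ser585Gly cells, and 12 rose and 1 fell in wild-type cells, which is 52.2% and 56.5% of the list, with list medians of 0.66 and 0.48 beside 0.00 and -0.01 over all genes. Pim2, a survival kinase, rose by 2.17 in Ser585Gly and 2.72 in wild-type cells. Lta, which encodes lymphotoxin alpha, rose by 2.10 and 2.12, Il24, a cytokine, by 2.09 and 2.65, and Bcl2l1, which encodes the survival protein BCL-XL, by 1.05 and 1.14. All 4 passed in both lines (limma adjusted p at most 0.00198). With dye-swap arrays averaged, 12 of the 23 rose in Ser585Gly cells and 8 in wild-type cells. Without the Ser585Gly response array that had 12 h RNA in Cy5, 5 rose in Ser585Gly cells, and without the wild-type response array that had it in Cy3, 7 rose in wild-type cells.

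Of 19 measured feedback and adaptor genes, 2 rose and 1 fell in Ser585Gly cells, and 2 rose and 2 fell in wild-type cells, which is 15.8% and 21.1% of the list and, for Ser585Gly cells, close to the 11.6% of all genes. Cish, a STAT5-induced inhibitor of cytokine receptor signalling, rose by 2.06 in both lines (limma adjusted p = 0.000148 in Ser585Gly and 0.00012 in wild-type cells). Between the lines Cish was lower in Ser585Gly cells by the same fit, at -0.70 at 12 h (limma adjusted p = 0.022, and 0.0782 with dye-swap arrays averaged) and -0.70 at 0 h (limma adjusted p = 0.0166, and 0.0528 with dye-swap arrays averaged). Line differences in the list of IL-2 or STAT5 targets went both ways. There 2 genes were higher and 4 lower in Ser585Gly cells at 12 h (26.1% of that list), and 1 higher and 4 lower at 0 h (21.7%). Of all genes, 1.96% passed at 12 h and 4.73% at 0 h. Pias3, an inhibitor of STAT3, fell, at -1.09 in Ser585Gly and -0.86 in wild-type cells. Socs2, of the same inhibitor family as Cish, stood at 0.61 in Ser585Gly cells (limma adjusted p = 0.0124) and 0.32 in wild-type cells (limma adjusted p = 0.123), and Socs5 at -0.51 (limma adjusted p = 0.247) and -1.11 (limma adjusted p = 0.0261).

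Of 9 measured Janus kinase and STAT genes, limma called 1 in Ser585Gly cells, Stat3 at -0.52 (adjusted p = 0.0212, and 0.0559 with dye-swap arrays averaged), and 0 in wild-type cells. At an unadjusted p under 0.05 from limma there were 4 in Ser585Gly and 6 in wild-type cells. The share of all genes under that unadjusted threshold is not given here, so these 2 counts are a description only. The list medians were -0.30 in Ser585Gly and -0.34 in wild-type cells. Of 12 measured genes of resting T cells and of FoxO factors, which interleukin signals hold down, 1 rose and 5 fell in Ser585Gly cells, and 0 rose and 4 fell in wild-type cells, which is 50.0% and 33.3% of the list. Cdkn1b, which encodes the cell cycle inhibitor p27, fell by 1.60 in Ser585Gly cells and fell by 1.29 in wild-type cells. In the same order of lines, Bcl6, a transcriptional repressor, stood at -1.39 and -1.13, Klf6, a zinc finger factor, at -1.20 and -1.04, and Klf3, another, at -0.45 and -0.64 (limma adjusted p at most 0.0197 for these 4 genes). Without either Ser585Gly response array 2 fell in Ser585Gly cells, and without the wild-type response array that had 12 h RNA in Cy3, 3 fell in Ser585Gly cells and 2 in wild-type cells.

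The genes whose 8 array values lay nearest to those of Il2ra on NM_008367, the probe that read above 50000 in 4 of 8 channels at 12 h, among 8686 genes at or above the median brightness, were Slc7a5, an amino acid transporter chain, and Odc1, the first enzyme of polyamine synthesis. Their root mean square differences from Il2ra were 0.22 and 0.26 on the log2 scale. Slc7a5 changed by 1.99 in Ser585Gly and 1.98 in wild-type cells, and Odc1 by 2.08 and 1.91. Hemk1, Cinp and Abhd17c followed, at 0.39, 0.40 and 0.41. Slc7a5 and Odc1 stood at -0.06 and 0.04 between the lines at 12 h, where the other 3 Il2ra probes stood at -0.60 to -0.85, so the likeness is to NM_008367 and not to every Il2ra probe. Nearest genes are not given for Il7r, which was at background in most channels.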

How the data were processed

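The deposited scanner files held foreground and background intensity for Cy5 and Cy3, per the file headers. The values in the authors' deposited table were log2 (Cy5/Cy3), with dye orientation left as hybridised; per the submitters' processing notes limma was used, with version and steps not given in the sources used here. Intensities were corrected (normexp, offset 50), normalised (global loess, span 0.3), and fitted in limma 3.58.1 (R 4.3.3) with mutation, time, their product and dye over all 8 arrays. Calls required a Benjamini-Hochberg adjusted p under 0.05 over 21782 probes. A gene counts by its brightest probe. The fit was tested on simulated data.

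Scanner files carry no probe names, and names in the table follow another pin order than the spots. Names were placed by setting the 8 deposited ratios against the scanner values and then applying the true print order. Of 21797 gene probes, 15 sharing a spot were left out. For 90.3% of the 21782 placed probes no other spot matched better than the listed one. In the recovered order 244 empty wells had a median brightness percentile of 1.34, against 47.5 in the listed order, and probe pairs of 320 other genes correlated at 0.45 across genes, against -0.06 over 218 genes.

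The members, lists and the rule for named genes (all members, up to 4 genes a list by mean response, and nearest genes) were chosen with earlier results of these data known. Alternatives were 11 settings and the omission of each of 8 arrays. The number of arrays limits the precision.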

Additional observations from a re-analysis of the deposited data

Results flagged for a closer look

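Of 40 single-channel levels of member probes, each with 4 channels, 3 had a channel far from the others, with a gap to the nearest channel, as a share of the range, above Dixon's 95% critical value; chance marks about 1 such group in 20. For Il2ra probe M21982 the share was 0.831 in Ser585Gly cells at 0 h, where the log2 levels were 10.72, 10.73, 10.84 and 11.41. For Il7r, a probe above the empty wells in 5 of 16 channels, it was 0.848 in Ser585Gly cells at 12 h, with levels of 7.76, 7.80, 7.83 and 8.23, and 0.840 in Ser585Gly cells at 0 h, with levels of 7.43, 7.54, 7.61 and 8.55.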

How the results depend on the processing

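The rise of Il2ra on NM_008367 passed the test in all 19 other settings in both lines, with log2 changes of 1.84 to 2.10 in Ser585Gly cells. M21982 and M21979 also passed in all 19 in both lines. M21980 passed in all 19 in wild-type and in 18 of 19 in Ser585Gly cells. The lowest changes in Ser585Gly cells were 1.12 on M21982, 1.20 on M21979 and 1.13 on M21980. Of 1947 recomputed log2 changes of single probes, 1681 kept their direction and their side of the threshold, 199 lost a call, 34 gained one and 33 changed sign, none of them past the threshold afterwards. No paired analysis was possible because the labels give the arrays no replicate numbers that pair samples across edges.

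The counts of member chains called in the GM-CSF response were 1 in Ser585Gly cells with the dimmest 25% of probes left out, dye-swap arrays averaged, median centring or no background correction, and 1 in wild-type cells with those probes left out or median centring, against 2 in each line. Il7r was among those probes. At 0 h the lines differed in 2 chains with the deposited ratios, print-tip loess, a random block for the edge or scaling between arrays, against 1. Omitting single arrays gave 1 to 3 chains in the Ser585Gly response, 1 to 4 in the wild-type response, 1 at 0 h, 0 to 1 at 12 h and 0 for the difference of responses.

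Counts of all probes called moved over 1.5 times, and the cause was not tested. For the response in Ser585Gly cells (2285) they were 4237 with the deposited ratios, 1361 with dye-swap arrays averaged, 4279 with print-tip loess and 4318 with the block. In wild-type cells (2072) they were 4184, 1092, 4087 and 4195 in the same order. At 12 h (373) they were 2202, 155, 995 and 1131, and 734 with scaling. At 0 h (886) they were 2552, 291, 2040 and 3381, 545 with median centring and 509 with no dye term. For the difference of responses (12) they were 86, 0, 48 and 35, 20 with no background correction, 6 with no dye term, 7 with offset 10, 21 with a trended prior and 1 with scaling. Omitting single arrays gave 269 to 3439, 413 to 3314, 67 to 625 at 12 h, 110 to 637 at 0 h and 0 to 5. Under median centring 1178 of 1810 calls in the Ser585Gly response were upward, against 1256 of 2285. With dye-swap arrays averaged 115 of 291 calls at 0 h were upward, against 450 of 886.

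Values that changed sign were small. With single arrays omitted, Il15ra ran from -0.278 to 0.094 in the Ser585Gly response, and Csf2ra from -0.14 to 0.111 and Il2rb from -0.292 to 0.171 in the wild-type response. At 12 h Csf2rb2 was -0.0535 with the deposited ratios and -0.000381 with print-tip loess, and -0.036 to 0.158 with arrays omitted. At 0 h Csf2ra was 0.0672 and 0.0887 in those settings and -0.362 to 0.0675 with arrays omitted, and Csf2rb2 was -0.0633 and -0.00743, -0.000778 with scaling and -0.237 to 0.161 with arrays omitted. For the difference of responses, with the deposited ratios and then print-tip loess, Csf2ra was -0.109 and -0.11, Il21r -0.00263 and -0.027, and Il7r 0.037 and 0.0444, while Il15ra was -0.0357 with the deposited ratios and Csf2rb2 -0.0147 with no background correction. With arrays omitted that difference ran from -0.0775 to 0.209 for Csf2ra, -0.108 to 0.201 for Csf2rb2, -0.0722 to 0.0848 for Il21r, -0.437 to 0.00366 for Il2ra on M21980 and -0.0326 to 0.231 on NM_008367.

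Signal over the empty wells limits Il7r and Csf2rb2.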
